A study of Caenorhabditis elegans with 4 samples.

Results

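Isolated PHA-4 peaks are binding sites that stand alone on their chromosome, with no other peak of the same list nearby. They were chosen by measured peak positions: a peak counted as isolated when the distance between its midpoint and the midpoint of the neighbouring peak was at least 10 kb on both sides. By this rule 1093 of 9165 peaks (11.9%) were isolated. Another 3642 peaks had 1 neighbour nearer than 10 kb, 4418 peaks had such neighbours on both sides, and the 12 first and last peaks of the 6 chromosomes were left out because they have only 1 neighbour. The 8060 peaks of the middle groups are called the other peaks here.

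PHA-4 is the FoxA transcription factor of the nematode Caenorhabditis elegans. FoxA proteins are forkhead factors that can bind their sites in closed chromatin, and PHA-4 is required for cells of the embryo to form the pharynx, the worm's feeding organ. It is active in the gut and other tissues as well, and its level in the embryo is known to set which pharyngeal target genes are switched on at which time.

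The peaks came from chromatin immunoprecipitation followed by sequencing (ChIP-seq) of late embryos of strain OP37, labelled as hermaphrodite and grown at 20 °C. The genotype was unc-119(ed3) III; wgIs37, where wgIs37 is an insertion carrying unc-119(+) and pha-4::TY1::EGFP::3xFLAG, so that the fusion protein with green fluorescent protein was pulled down with a goat antibody against EGFP. There were 2 ChIP and 2 input libraries, all 4 of this genotype and stage, with no strain lacking the transgene among them. Formaldehyde was at 2% for all 4. The insertion was made by bombardment and is 1 strain, and whole embryos were lysed, so each peak is a sum over cell types. The authors deposited 1 list combined over the replicates, with a position and a q-value for each peak, so no value below carries a replicate error and the sequencing depth behind a peak is unknown.

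Spacing chose the members, and width and q-value came from the same comparison of ChIP with input, so all values below describe the list and no test is attached to them. The q-values are the authors' and serve to rank peaks within this list. Coordinates are those of WormBase build WS180.

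The members nearest to the 10 kb limit lay on chromosome V from 10736791 to 10737081, with a neighbour at 10008.5 bp, and on chromosome II from 8052146 to 8052582, with one at 10010 bp. Just outside were a peak on chromosome V from 11239209 to 11239525, with a neighbour at 9991.5 bp, and one on chromosome I from 1251386 to 1251972, at 9971.5 bp. Both peaks just outside scored better (q = 2.85e-14 and 2.07e-46) than both just inside (q = 2.23e-06 and 2.13e-05).

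Isolated peaks were spread over the chromosomes almost in proportion to length, whereas the other peaks were not. The density of isolated peaks lay between 9.97 per Mb on chromosome III and 11.8 per Mb on V. The density of the other peaks ranged from 47.2 per Mb on V to 106 per Mb on III. As chromosome length served the stretch that its outermost peaks enclose, 99.98 Mb in all. The 10 kb rule itself favours such evenness, since a sparse stretch offers few peaks and a dense stretch few that are far from both neighbours.

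Chromosome V, the longest of the 6, held 247 isolated peaks, or 22.6% of them. It held 20.9% of the span and 12.2% of the other peaks. Of all peaks on V, 20.0% were isolated, against 10.7% over the remaining chromosomes together. Chromosome III lay at the opposite end with 137 isolated peaks, or 12.5% of them, beside 13.7% of the span and 18.1% of the other peaks. Of all peaks on III, 8.57% were isolated. Chromosomes I and II held 166 isolated peaks each (11.1 and 10.6% of their peaks), IV held 178 (11.4%) and the X chromosome 199 (11.6%). These 4 differed little from one another, so that V and III were the chromosomes on which the isolated share stood apart.

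**Figure D1:**
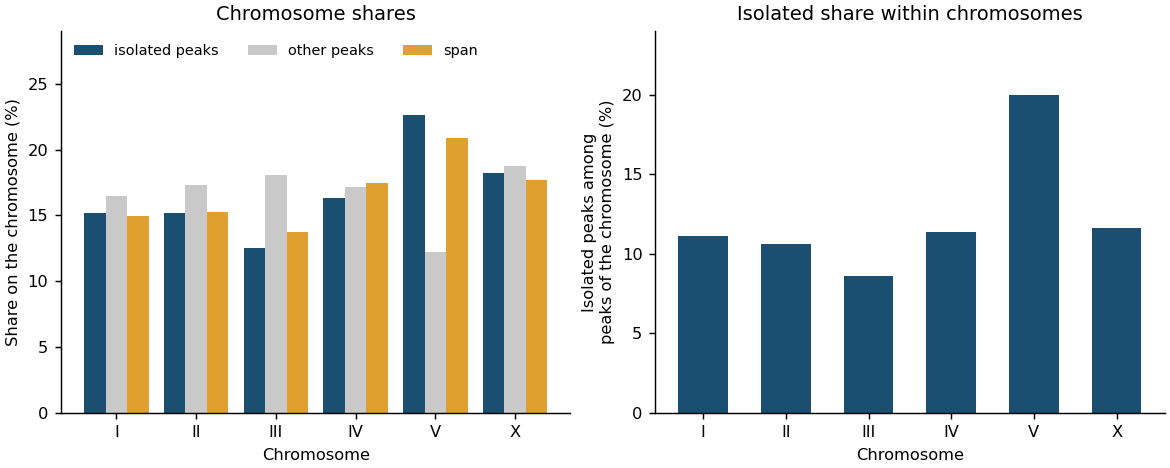
The left panel gives, for each chromosome, its share (%) of the isolated peaks, of the other peaks and of the span; the right panel gives the percentage of the peaks on each chromosome that were isolated. The isolated peaks follow the span, and the isolated share within a chromosome is highest on V (20.0%) and lowest on III (8.57%).

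The same evenness appeared in windows of about 1 Mb. All 100 windows held isolated peaks, from 3 to 19 each, with a median of 11 and quartiles of 9 and 13. The windows were ordered by their total number of peaks and taken in sets of 25. In the 25 sparsest windows, with 11 to 72 peaks each, the median number of isolated peaks was 11, and in the 25 densest, with 112 to 165 peaks each, it was 9. The percentage of peaks that were isolated fell from 21.6 through 14.8 and 10.3 to 7.56 over the 4 sets. Thus a window's total changed more than its count of isolated peaks. Of the 25 sparsest windows, 14 were on chromosome V, while 0 of the 25 densest were.

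The windows richest in isolated peaks were on chromosome I from 2997337 to 3995220 and on chromosome V from 9956362 to 10951189, with 19 each. The poorest was on chromosome IV from 6206378 to 7232253, where 3 of 98 peaks were isolated. A window on chromosome I from 6988874 to 7986757 was nearly as poor, with 4 of 134.

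Autosome centres, which recombine little in C. elegans and hold much of the conserved gene content, are the dense part of this list. The isolated peaks did not share that pattern. Of 894 isolated peaks on autosomes, 287 (32.1%) lay in the centre, taken as the middle 33.3% of each span, against 43.1% of the other peaks on autosomes. Per Mb, the centres held 10.5 isolated peaks, the left arms 11.0 and the right arms 11.2. The centre thus stood close to the arms in density of isolated peaks.

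Single chromosomes differed in this respect. The centre held 28.3% of the isolated peaks on chromosome I and 42.7% of its other peaks. On II the values were 28.9 and 45.5%, and on III 31.4 and 40.3%. On IV they were 33.1 and 39.8%. Chromosome V was the autosome with the largest share of its isolated peaks in the centre, at 36.4%, beside 48.8% of its other peaks. On the X chromosome, which has no comparable division into centre and arms, the shares were 34.2 and 34.7%. The share was lower among isolated than among other peaks on each of the 5 autosomes, and the gap on X was small.

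Along chromosomes I to IV together, the isolated share of peaks was lowest in the fourth of 10 equal parts of the span, at 6.51%, and highest in the second, at 16.0%. The density of isolated peaks was lowest in the same part, at 7.81 per Mb, and highest in the eighth, at 12.4 per Mb. On V the isolated share reached 41.8% in the ninth part, where 23 of 55 peaks were isolated, and fell to 10.9% in the sixth, with 24 of 220. The number of isolated peaks was thus almost the same in these parts of V, and the number of other peaks was not.

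**Figure D2:**
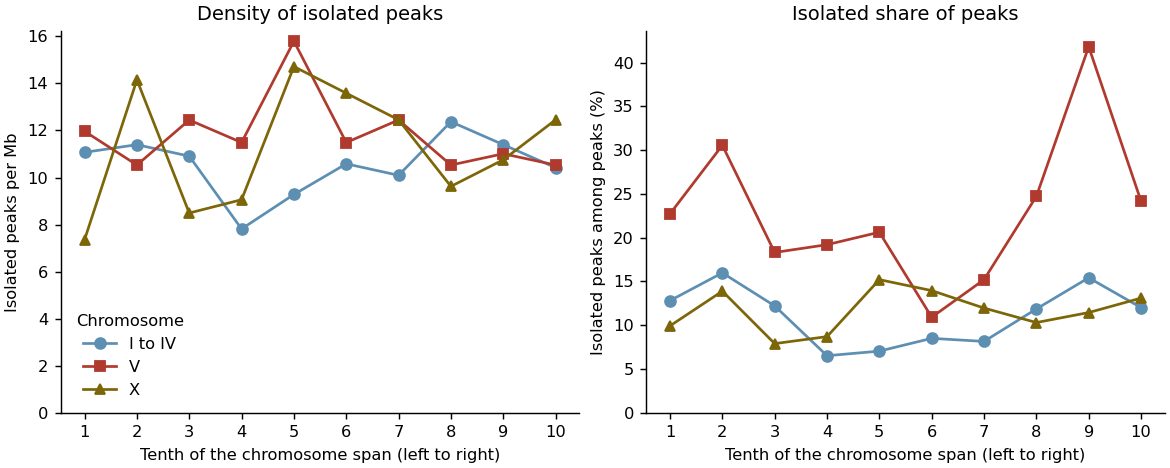
Isolated peaks per Mb (left) and as a percentage of all peaks (right) in 10 equal parts of the chromosome span, numbered from the left end, for chromosomes I to IV pooled, V and X. The density stays between 7.36 and 15.8 per Mb throughout, while the share on V ranges from 10.9 to 41.8%.

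The typical isolated peak was slightly narrower than the other peaks. Its median width was 296 bp, with quartiles of 220 and 383 bp, against 314 bp (220 and 446 bp) in the other peaks. The lower quartiles were equal, so the difference lay in the upper part of the distribution. The width that 10% of peaks exceeded was 537 bp in isolated peaks, 597 bp in peaks with 1 near neighbour and 728 bp in peaks with near neighbours on both sides.

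Wide regions were scarce among isolated peaks. Of the 1093 isolated peaks, 132 (12.1%) were wider than 500 bp and 13 (1.19%) wider than 1 kb. The corresponding shares of the other peaks were 19.4 and 3.33%. Among peaks with a neighbour under 1 kb, which count as other peaks, 0.829% were wider than 1 kb. Distances ran between midpoints, so a neighbour that near leaves little room for a wide peak. That value therefore cannot be set against the isolated share. With the nearer neighbour at 1 to 2, 2 to 5 and 5 to 10 kb, the shares were 5.31, 3.86 and 1.89%. Read the other way, 14.4% of peaks from 200 to 299 bp were isolated, 8.36% of those from 500 to 999 bp and 4.61% of those of 1 kb and more. Of the 13 isolated peaks over 1 kb, 6 were on X and 4 on V, while chromosomes III and IV had 0. Of the 268 other peaks over 1 kb, 66 were on X, 39 on V, 39 on III and 44 on IV. The 13 are too few to show a chromosome pattern.

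Over whole chromosomes, the median width of isolated peaks was below that of other peaks on each of the 6. The difference was largest on V, with 299 bp in isolated and 353 bp in other peaks, and on II, with 269.5 and 297.5 bp. On X the medians were 321 and 339 bp, on IV 298.5 and 311 bp, on III 278 and 288 bp and on I 304.5 and 310 bp. Isolated peaks on X were thus the widest and those on II the narrowest. Within the centres of the 5 autosomes pooled, the order turned, with 311 bp in isolated and 307 bp in other peaks. It was 280 and 306 bp in the left arms and 291 and 311 bp in the right arms. By chromosome, isolated peaks were narrower in the centres of II (290 and 295 bp) and V (322 and 360 bp). They were wider in that of IV (311 and 304 bp), while I (311 and 310 bp) and III (278 and 277.5 bp) showed almost no difference. The share over 500 bp was likewise lower among isolated peaks on all 6 chromosomes, with 19.1% on X against 24.3% of the other peaks there.

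Isolated peaks were not the poorly scoring ones of the list. Their median −log10 q was 6.08, against 5.90 in the other peaks, an order that turned among peaks with q of at most 0.001 (7.89 and 8.04) and among the better-scoring 4582 (12.3 and 12.7). In the full list 564 isolated peaks (51.6%) fell in those 4582. A q-value above 0.001 was found in 19.8% of isolated and 21.8% of other peaks. At the top of the list the order was reversed. The best-scoring 10% of all peaks included 7.87% of the isolated and 10.3% of the other peaks. A q-value below 1e-50 was found in 14 of 1093 isolated and 199 of 8060 other peaks. Of the best 100 peaks 6 were isolated, and of the best 10, 0, beside 11.9% of all peaks. The best 10 are too few to set against that share.

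The isolated share was thus highest in the middle of the score range. It was 10.9% for peaks with −log10 q from 2 to 3, 13.8% from 5 to 10, 10.6% from 20 to 50 and 6.57% above 50. Both ends of the range were poorer in isolated peaks than its middle.

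**Figure D3:**
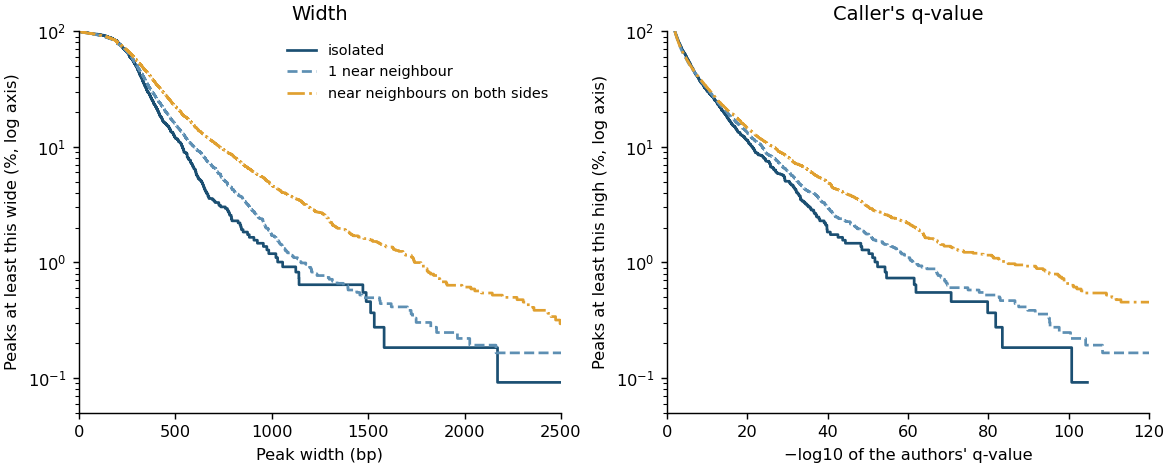
Percentage of peaks (log axis) at least as wide (left, bp) or with a −log10 q at least as high (right) as the value on the horizontal axis, for the 1093 isolated peaks, 3642 peaks with 1 near neighbour and 4418 peaks with near neighbours on both sides. The curves run together at low values and separate in the upper part, where isolated peaks are lowest over most of the range.

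Score differed between isolated and other peaks in a way that depended on the chromosome and on the part of it. On I the median −log10 q was 7.59 in isolated and 5.99 in other peaks. The order was the same on II (6.46 and 6.12), IV (6.00 and 5.66) and X (5.72 and 5.46), and both medians on III were 6.57. On V as a whole it was reversed, with 5.40 in isolated and 5.59 in other peaks. In the centre of V, however, isolated peaks scored higher (6.92 and 5.92), and in both its arms lower. Isolated peaks also scored lower in the left arm of II (4.67 and 5.56) and the right arm of IV (4.64 and 5.94). In the remaining parts of II and IV they scored higher. Of the 86 isolated peaks in the best-scoring 10% of the list, 24 were on X, 19 on I and 9 on V. That was 12.1% of the isolated peaks on X, 11.4% on I and 3.64% on V. On I and X isolated peaks reached the best-scoring 10% slightly more often than the other peaks there (11.0 and 10.7%), and on II, III, IV and V less often.

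Width and score were related in both groups. Among isolated peaks Spearman's rho between width and −log10 q was 0.77 over 1093 peaks, and among the other peaks it was 0.76 over 8060. These peaks share their libraries. Within broad sets by score, the isolated peaks were narrower in all but the poorest. The 1093 isolated and 8060 other peaks were ordered by q together and taken in 4 sets of about equal size. In the best-scoring set the median width was 415 bp in 260 isolated and 502 bp in 2029 other peaks. In the next it was 328 and 352 bp, and in the one after that 245 and 263 bp. In the poorest set it was 185 and 184 bp. The best-scoring set spanned −log10 q from 12.5 to 239.9, so scores inside it were not matched.

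The isolated peak with the best q-value lay on the X chromosome from 14525431 to 14526224 (794 bp, q = 2.12e-105), 12187 bp from one neighbour and 30687.5 bp from the other. It ranked at place 32 of the whole list. Next came a peak on X from 2996461 to 2997491 (1031 bp, q = 1.73e-101), and then others on X from 13700488 to 13701111 (624 bp, q = 3.14e-84) and from 3127156 to 3128628 (1473 bp, q = 1.43e-82). In all, 7 of the 10 best-scoring isolated peaks were on X, 2 on V and 1 on III. The X chromosome held 18.2% of all isolated peaks, and the best 10 are too few to show a chromosome pattern. Of these 10, 1 lay in the central 33.3% of its chromosome, and they were 517 to 3107 bp wide.

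The remaining 3 on X began at 9958068 (875 bp, q = 9.92e-63), at 16056153 (675 bp, q = 2.07e-55) and at 12362779 (770 bp, q = 4.90e-55). The one on III ran from 10758838 to 10759398 (561 bp, q = 1.42e-80), with neighbours at 11020 and 19296 bp. On V they were a peak from 18967502 to 18968018 (517 bp, q = 2.74e-62), with 66010.5 bp to its left neighbour, and a peak from 20771429 to 20774535 (q = 1.73e-71). The latter was also the widest isolated peak, at 3107 bp, and lay at 99.4% of the span of V, close to its right end. It kept 33101.5 and 41598.5 bp from its neighbours and so stood further from other peaks than the other 9.

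The best isolated peaks of the remaining chromosomes scored less well. On I the best was at 4535769 to 4536559 (791 bp, q = 3.61e-53), on IV at 13865087 to 13865503 (417 bp, q = 5.35e-51) and on II at 13872427 to 13872797 (371 bp, q = 1.39e-40). After the peak at the right end of V, the widest isolated peaks were on V from 14830470 to 14832640 (2171 bp, q = 1.80e-26) and on II from 14337614 to 14339196 (1583 bp, q = 1.57e-33). Both lay outside the chromosome centres.

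At the narrow end, 197 isolated peaks (18.0%) were under 200 bp, close to the 19.3% of the other peaks, and 9 were under 10 bp. The narrowest covered a single base each, at position 17297574 on X (q = 3.37e-04), 11340731 on I (q = 0.00328) and 3632623 on V (q = 0.00357). Such calls are shorter than the fragments that ChIP-seq sequences. The 9 peaks under 10 bp stood at places 5927 to 9017 of the 9165 ranked by q, the best of them on IV from 2693194 to 2693196 (3 bp, q = 7.97e-05).

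The distance from an isolated peak to its nearer neighbour had a median of 15066.5 bp, with quartiles of 12069 and 21613 bp. The distance to the farther neighbour had a median of 30202.5 bp and reached 292607.5 bp. The farther distance, which by definition is not below the nearer, was 1.70 times as long at the median. On V the nearer distance had a median of 17083.5 bp, against 14757 bp on the remaining chromosomes, and was at least 20 kb in 40.1% of isolated peaks, against 26.6%.

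**Figure D4:**
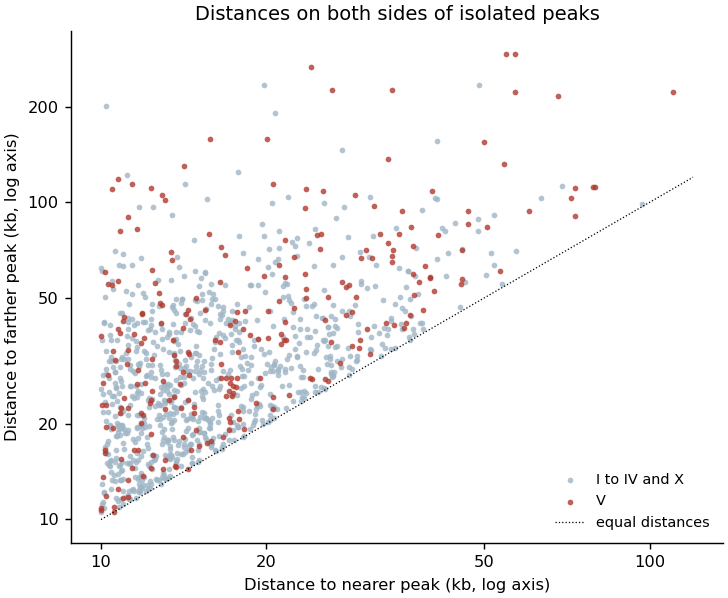
Distance of each of the 1093 isolated peaks to its nearer (horizontal) and farther (vertical) neighbouring peak, in kb on log axes, with the 247 peaks of chromosome V marked. Points above the dotted line have unequal distances, and V supplies 14 of the 23 peaks whose nearer neighbour was at least 50 kb away.

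The shares of wide and of high-scoring peaks fell with greater isolation, though on small counts. Of the 769 isolated peaks with the nearer neighbour at 10 to 20 kb, 8.45% were in the best-scoring 10% of the list. Of the same 769, 1.43% (11 peaks) were over 1 kb wide. Of the 301 at 20 to 50 kb the shares were 6.98 and 0.664% (2 peaks over 1 kb). Of the 23 at 50 kb and more, 0 were in either set, and their median −log10 q was 3.76, against 6.21 at 10 to 20 kb and 6.05 at 20 to 50 kb. Chromosome V, where isolated peaks scored lower as a whole, held 148 of the 769, 85 of the 301 and 14 of the 23. Chromosome and distance were thus mixed, though not fully, as 9 of the 23 lay on the remaining chromosomes. Scores by distance within single chromosomes were not compared. Over all 1093, Spearman's rho with the nearer distance was -0.04 for −log10 q and -0.05 for width, so neither followed the distance closely.

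The peaks nearest to one another were not the best scoring either. Peaks with a neighbour under 1 kb had a median −log10 q of 4.74 and a median width of 295 bp. Of these peaks, 5.47% were in the best-scoring 10%. The highest share, 13.5%, was in peaks whose nearer neighbour was at 1 to 2 kb, where the median width was 347.5 bp. Midpoints under 1 kb apart leave little room for wide peaks, and width and score were related. The values under 1 kb are thus limited in part by the distance measure. Isolated peaks at 10 to 20 kb resembled those at 5 to 10 kb, which had a median −log10 q of 6.02 and a median width of 291 bp.

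**Figure D5:**
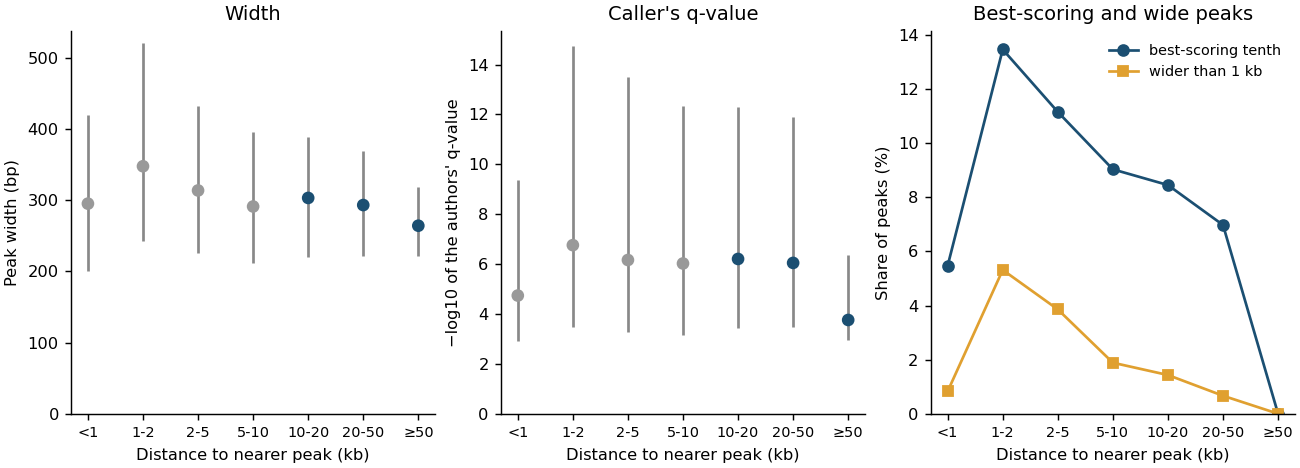
Peaks grouped by the distance to their nearer neighbour (kb). The left and middle panels give the median (point) and quartiles (line) of width (bp) and −log10 q, with the isolated groups in dark blue, and the right panel the percentage in the best-scoring 10% of the list or wider than 1 kb; both percentages are highest at 1 to 2 kb and 0 at 50 kb and more.

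The 5 most isolated peaks, by the distance to the nearer neighbour, were 4 on chromosome V and 1 on IV. The first, on V from 17538291 to 17538779 (489 bp, q = 7.94e-05), had neighbours 223303 bp to its left and 110418.5 bp to its right. The one on IV, from 4977780 to 4977973 (194 bp, q = 0.00881), lay almost midway in an otherwise empty stretch, at 96989.5 and 98897.5 bp. The others on V began at 16160162 (364 bp, q = 1.99e-04), 16272294 (293 bp, q = 2.43e-04) and 18250344 (186 bp, q = 0.00466). The last of these shared its nearer distance of 73108.5 bp with its left neighbour, an isolated peak from 18177092 to 18177564 (473 bp, q = 3.15e-04), so that place was tied. All of these 5 scored in the poorer part of the list, at places 5923 to 9040 of 9165. The 4 on V all lay in its right arm, and the pair at 16160162 and 16272294 were each other's neighbours.

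The neighbour of an isolated peak is at least 10 kb away on one side by definition. Of the 5836 peak ends that border the 2918 midpoint distances of at least 10 kb, 37.5% belonged to isolated peaks. The nearer neighbour of an isolated peak was itself isolated in 423 of 1093 cases (38.7%), close to that share. In all, 677 isolated peaks stood in 253 runs of 2 or more, a number that follows largely from the same rule. Most runs were short, with 148 pairs and 64 runs of 3. The longest run had 7 peaks, on V from 16910891 to 17659543, over 749 kb. Its peaks were 200 to 489 bp wide, and their q-values were between 0.00712 and 3.52e-20, with a median of 2.59e-04. This run included the most isolated peak and both flanks of the longest empty stretch of the list, from 16966000 to 17258253.

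Runs of 6 isolated peaks were found 6 times, 2 of them on I and 1 each on III, IV, V and X. The run on I from 3147739 to 3228258 was the most compact, over 80.5 kb with midpoint distances of 14017 to 21282.5 bp. The q-values of its peaks had a median of 5.71e-09 and reached 1.99e-24, so this run scored better than the one of 7 on V. Between an isolated peak and its nearer neighbour the scores were not related, with Spearman's rho of 0.01 for −log10 q over 1093 pairs, some of which share peaks.

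Of the 2918 midpoint distances of at least 10 kb, 1762 (60.4%) had an isolated peak on 1 or both sides. Among longer distances the numbers were 928 of 1486 (62.4%) from 20 kb, 188 of 285 (66.0%) from 50 kb and 33 of 46 (71.7%) from 100 kb. The other borders of such stretches were peaks with a near neighbour on the opposite side, or the first and last peaks of a chromosome. Positions nearer to an isolated peak than to any other made up 31.4% of the span, with 45.0% on V and 23.5% on III. Isolated peaks thus stood for 11.9% of the peaks and a larger part of the chromosomes, as the rule that chose them requires.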

How the data were processed

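The deposited list held 9165 peaks of 4 libraries (2 ChIP, 2 input), combined over the replicates. Per the file headers, the authors called peaks with PeakSeq on WormBase WS180. Neither labels nor headers at hand name the aligner, the program versions or the way of pooling. The authors deposited a q-value for each peak (the largest was 0.00997), written as −log10 q here, with no tag counts, so depth and precision per peak are unknown. Starts and ends are 1-based.

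Peaks were sorted, midpoints taken and distances computed with Python 3.11.15, pandas 2.3.3, numpy 2.4.6 and SciPy 1.17.1. The selection was checked on a list with known spacing. Members and comparisons were chosen with earlier results of these data known, and all are descriptions without a test. Regions named were the 10 isolated peaks with the lowest q, the 5 most isolated, the 3 widest and 3 narrowest, the best of each chromosome, those at the limit and the longest run. The 1 Mb windows, score sets, runs of 6 and empty stretches were chosen after the data were seen. Alternatives were another limit (5000 or 20000 bp), edge distances, stricter lists, merging and another centre. No WS180 genome or annotation was used, so genes and sequences at the peaks were not analysed here.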

Additional observations from a re-analysis of the deposited data

How the results depend on the processing

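Each of 5 summary values was recomputed with 1 choice changed, 40 recomputations in all. A value counted as unmoved when it stayed within the 95% exact binomial interval of the reported share or the order-statistic interval of the reported median, and 20 did. These intervals treat peaks as independent and cover counting only. The percentage of peaks that were isolated moved most, by construction, to 25.8 with a limit of 5000 bp, 3.54 with 20000 bp, 17.1 at q of at most 0.001, 29.4 in the better-scoring 4582 peaks, 16.5 without peaks under 200 bp, 18.2 after merging over 1000 bases and 10.7 without chromosome V, an alternative chosen after seeing the data. The share on V moved to 18.0% at 5000 bp, 30.6% at 20000 bp and 17.7% in the better-scoring 4582, and the share in autosome centres to 21.9% at 20000 bp and 47.2% with the centre as the middle 50% of the span. Median width moved to 327 bp at q of at most 0.001, 383 bp in the better-scoring 4582, 322 bp without narrow peaks and 321 bp after merging, and median −log10 q to 7.89, 12.3, 7.83 and 6.79. In every one of these settings that was compared with its own other peaks, isolated peaks were narrower, more often on V and less often in autosome centres (V left out where it was removed). The higher median −log10 q of isolated peaks was not stable. It was 7.89 against 8.04 in other peaks at q of at most 0.001, and 12.3 against 12.7 in the better-scoring 4582; it was 5.94 in both groups with a limit of 20000 bp and 6.79 in both after merging, and the cause was not tested. Edge distances moved none of the 5 values. No paired analysis was possible because both replicates are merged into 1 list, and no replicate could be left out for the same reason.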
